A study of Mus musculus with 9 samples.

Results

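The small heat shock proteins described here are the products of Hspb1, Cryab and Hspb8, measured in laser-cut motor neurons of mice with spinal muscular atrophy (SMA), in which motor neurons degenerate for want of SMN protein. All probe sets that the platform annotation assigns to 1 of these genes alone were taken, which gave 8 probe sets of 3 genes, out of 22626 probe sets and 12393 named genes on the array. The 3 genes were chosen by their measured signals in all 3 groups of these same arrays, with the differences between the groups already known. Their levels and differences are therefore given as a description, with no p-value.

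There were 9 arrays, taken here as 1 per mouse, in 3 groups of 3. Transplanted SMA mice had been grafted at postnatal day 1 with cells the labels call NSC, an abbreviation they do not spell out and that usually stands for neural stem cells, and SMA mice and wild-type mice had the same surgery with vehicle at that age. All animals were killed at 13 days and their lumbar cords were perfused with paraformaldehyde, so fixation, surgery and age were shared by every group. The study describes its SMA mice as transgenic without naming alleles, promoter or the donor of the grafted cells in the labels. The neurons were cut out of lumbar sections by laser, and the little RNA they gave was amplified in 2 rounds, which can favour the 3′ ends of transcripts. Whether any 2 mice of a group were littermates is not given. The sample titles give a group and a number only, so the spread within a group is strictly that between arrays.

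Small heat shock proteins are chaperones that work without ATP. They share an alpha-crystallin domain, join into large assemblies and hold unfolding proteins until Hsp70 chaperones refold them or the cell degrades them. Heat shock factor 1 (HSF1) raises several of them under stress by binding heat shock elements, inverted repeats of the unit GAA. Hspb1 (Hsp25 in mice, HSP27 in humans) also protects actin and intermediate filaments and is raised in motor and sensory neurons after their axons are cut. Cryab, alpha-B crystallin, was first known from the lens and is made in the nervous system mostly by oligodendrocytes and astrocytes. Hspb8 acts with the co-chaperone Bag3 to send misfolded proteins to autophagy. In humans, mutations of HSPB1 and of HSPB8 cause inherited neuropathies of motor axons. All 3 proteins are also abundant in skeletal and heart muscle.

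The promoters of Hspb1 and Hspb8 are shown because both hold a match to the core of a heat shock element. RefSeq windows of GRCm38.p6, running from 250 bases before to 50 bases after a gene's annotated start, were searched for GAANNTTC and for TTCNNGAA, each of which reads the same on both strands. The window of Hspb1 held 2 matches to GAANNTTC, at -117 to -110 and at -97 to -90 from the start. That of Hspb8 held 1, at the 3rd to 10th base of the annotated transcript. The TTCNNGAA form was in neither window. Of 32851 windows, 7.86% held GAANNTTC and 8.52% held TTCNNGAA. By gene, 9.04% of all genes with a window held GAANNTTC and 9.60% held TTCNNGAA. Of 17 genes of the heat shock response list with a window, 8 held the first and 4 the second. The Hspb1 match farther from the start and the Hspb8 match had the same letters, GAAGTTTC, a form found on either strand in 1.21% of all windows and noted after the matches were seen. Hspb6, another small heat shock gene with no probe set naming it alone, held the same letters at -120 to -113. No window for Cryab was used. The sequences run 5′ to 3′, with the matches in capitals. That of Hspb1 covers chr5:135887669-135887918 on the plus strand, the 250 bases before the start. That of Hspb8 covers chr5:116422855-116423114 on the minus strand, the 250 bases before the start and the first 10 bases of the transcript.
Hspb1: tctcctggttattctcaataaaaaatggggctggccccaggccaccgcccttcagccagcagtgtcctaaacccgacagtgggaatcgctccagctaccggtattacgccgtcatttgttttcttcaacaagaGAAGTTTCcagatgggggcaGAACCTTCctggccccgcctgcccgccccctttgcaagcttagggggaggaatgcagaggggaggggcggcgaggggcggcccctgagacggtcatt
Hspb8: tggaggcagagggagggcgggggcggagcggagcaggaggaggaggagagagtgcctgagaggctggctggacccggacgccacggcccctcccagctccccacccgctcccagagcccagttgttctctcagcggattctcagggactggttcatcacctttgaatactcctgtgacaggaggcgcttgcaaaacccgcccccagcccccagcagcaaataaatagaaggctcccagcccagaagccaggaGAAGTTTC

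The values are MAS5 signals, a linear brightness per probe set in arbitrary units after the authors' scaling of each array. Probes differ in how well they bind, so the level of one probe set is not set against that of another. Group differences were taken on log2(signal + 16), on which changes of dim genes come out too small. The brighter 50% of the probe sets by mean over the arrays, 11313 of 22626, were tested, and 7 of the 8 small heat shock probe sets were in it. The exception was the Cryab probe set 1435837_at, which read 9.1 to 15.1 on the 9 arrays. The probe sets nearest this limit on the tested side were 1417014_at of Hspb8, at a mean log2(signal + 16) of 5.69, and 1456434_x_at of Hspb8, at 5.80, against a limit of 5.63.

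The arrays had median signals of 31.4 to 35.8. Pairs of arrays correlated at 0.904 to 0.975 within a group and at 0.91 to 0.962 across groups, ranges that overlap. SMA 3 and wild type 3 stood apart by their 18S ribosomal RNA, at 2765 and 2940 against 839.2 to 1832 on the other arrays. They also had the highest hybridisation controls and the highest ratios of 3′ to 5′ actin signal, a sign of RNA quality, at 4.32 and 3.66 against 2.48 to 3.11. SMA 1 and SMA 2 carried transcripts of skeletal muscle, with the muscle actin Acta1 at 1288.7 and 1413.7 against 1.5 to 27.1 elsewhere. Sex transcripts were uneven. The female RNA Xist read 366.1 to 879.5 on all transplanted SMA arrays and on SMA 1 and SMA 2, against 23.5 to 47.6 on SMA 3 and the wild-type arrays. The Y-linked gene Eif2s3y read 0.4, 0.3 and 84.8 in transplanted SMA, 0.5, 0.1 and 108.9 in SMA, and 49, 54.7 and 75.1 in wild type. Transplanted SMA 3 thus carried both transcripts, and whether that array held RNA of 1 mouse alone was not tested. The defining motor neuron genes Slc18a3, Slc5a7, Isl1 and Mnx1 were dim throughout, at 2.1 to 41.7, 3 to 11.8, 3.8 to 16.7 and 4.1 to 16.3, so the label of the captured cells rests on the capture and not on these probe sets. Isl2, another motor neuron factor, was bright enough to test and read 119.8, 83.7 and 62.6 in transplanted SMA, 47.8, 34.7 and 58 in SMA, and 43, 59.6 and 26.4 in wild type. Its transplanted arrays lay above all others (0.72, SE 0.27, limma adjusted p = 0.933 against SMA, and 0.83, SE 0.27, adjusted p = 0.671 against wild type).

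Hspb1 separated the 3 groups completely. Its brighter probe set, 1422943_a_at, read 171.9, 104.9 and 147.3 in transplanted SMA, 368.5, 288.5 and 249.2 in SMA, and 65.1, 59.4 and 88.6 in wild type. Every SMA array lay above every transplanted SMA array, and every transplanted SMA array above every wild-type array. The means were 141 ± 33.9 in transplanted SMA, 302 ± 60.8 in SMA and 71 ± 15.5 in wild type (SD, n = 3 each). In bulk samples of this kind, fewer cells of a type and less RNA per cell cannot be told apart.

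The other Hspb1 probe set, 1425964_x_at, gave the same order. It read 93.3, 44.5 and 106.2 in transplanted SMA, 177.5, 168.2 and 172 in SMA, and 21.9, 13.7 and 14.2 in wild type. The SMA animals lay close together, at 173 ± 4.68, against 81.3 ± 32.5 in transplanted SMA and 16.6 ± 4.6 in wild type (SD, n = 3 each). The transplanted animals spread most, and transplanted SMA 2 was the lowest of its group at both probe sets. The suffix x marks a probe set with probes that can also bind other transcripts, and its wild-type signals were close to the dim limit. It shared the shape of the brighter probe set over the arrays, with a root mean square difference of 0.40 log2 units between the 2 profiles once each profile's own mean was taken away.

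**Figure D1:**
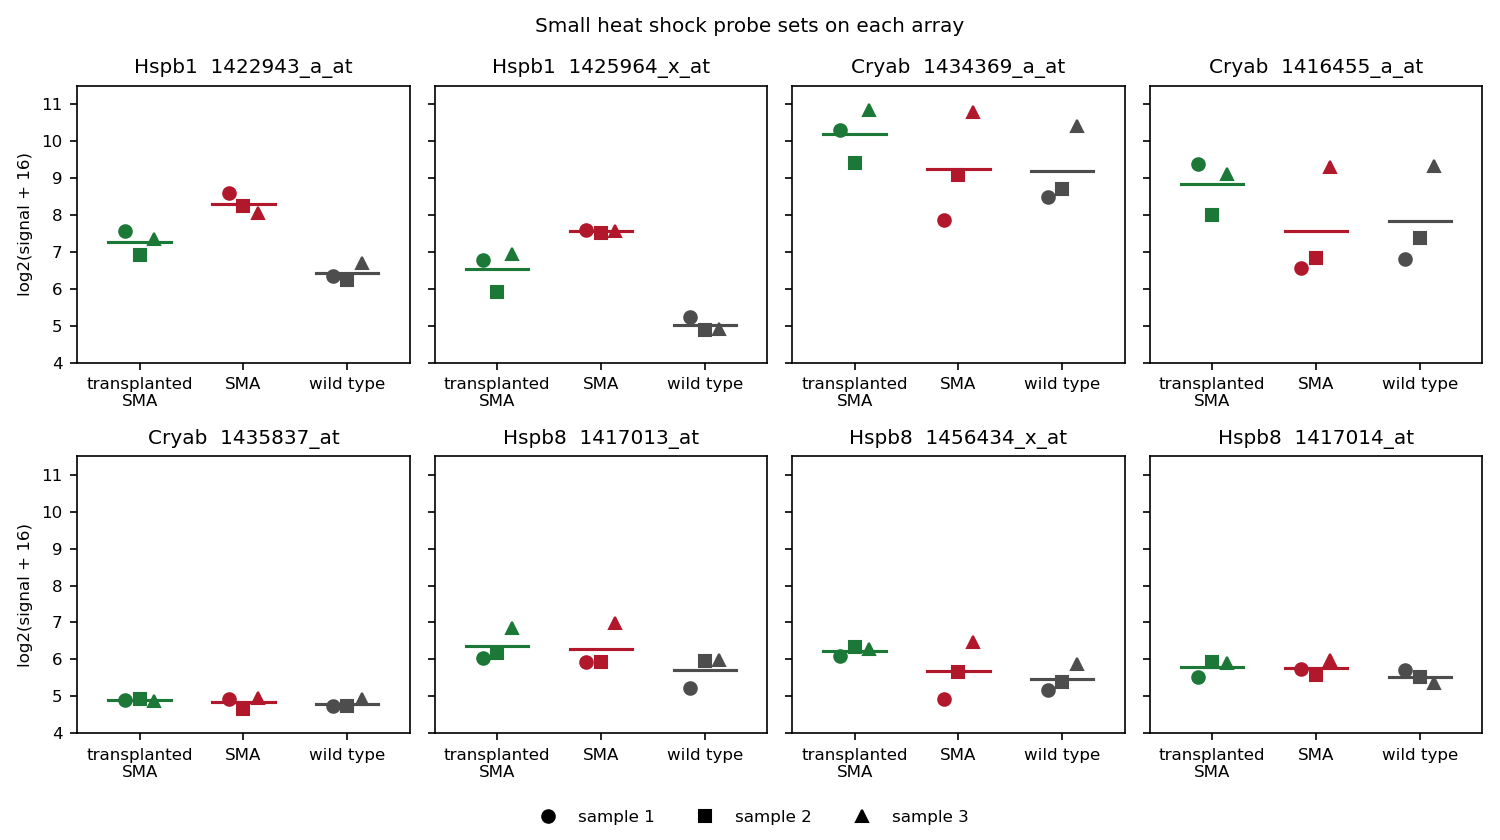
Log2(signal + 16) of each of the 8 probe sets of Hspb1, Cryab and Hspb8 on each array, by group (transplanted SMA, SMA, wild type, left to right); symbols give the sample number and horizontal lines the group means (n = 3 arrays). The groups do not overlap at either Hspb1 probe set, while sample 3 of SMA and of wild type is the highest of its group at both bright Cryab probe sets.

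The first comparison sets vehicle-treated SMA animals against wild type and bears on what the disease changes. For Hspb1 the difference in mean log2(signal + 16) was 1.87 (SE 0.22) at the brighter probe set and 2.54 (SE 0.25) at the other. In mean signal SMA stood 4.25-fold and 10.4-fold above wild type, the latter over a wild-type signal below the limit for testing. Both probe sets were past limma's adjusted p of 0.05, the only 2 of the 7 tested small heat shock probe sets to be so, beside 0.0442% of all probe sets tested. The same 2 of 7 had groups that did not overlap, beside 11.4% of all probe sets. Because the genes were chosen with this comparison known, nothing is read from these counts.

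Skeletal muscle makes much Hspb1, and its transcripts moved with the SMA label on only some arrays. The summed signal of 12 muscle genes was 128.1 to 146.2 in transplanted SMA, 2618.6, 3360 and 106.5 in SMA, and 99.3 to 218.7 in wild type. On SMA 3, where Acta1 read 1.5 and the fast troponin gene Tnnc2 0.8, Hspb1 read 249.2 and 172. Both lay above all transplanted and wild-type arrays. SMA 3 is a single array, with high 18S RNA and the highest actin ratio, at 4.32. Without SMA 1 and SMA 2 the Hspb1 differences from wild type were 1.62 (SE 0.30) and 2.54 (SE 0.38), and neither passed the threshold in that fit, which rests on 1 SMA array assumed to vary like the other groups. With the muscle genes as a covariate they were 1.64 (SE 0.29) and 2.55 (SE 0.34), and with Xist as a covariate 1.64 (SE 0.34) and 2.65 (SE 0.39). Neither passed under either covariate. Within groups, both covariates varied mostly between SMA 3 and the other SMA arrays. The covariate fits and the fit without SMA 1 and SMA 2 therefore rest largely on the same array, SMA 3, and are not separate results. Oligodendrocyte markers ran the other way, all 9 tested being lower in SMA than in wild type (median -0.44, 0 past the threshold). Microglial markers ran the same way as Hspb1, all 8 tested being higher in SMA than in wild type (median 0.23, 0 past the threshold). The part of skeletal muscle, oligodendrocytes or microglia in the Hspb1 values was not tested. The brighter Hspb1 probe set also lost its call without wild type 1, wild type 2 or SMA 1, and its difference was 1.72 to 2.01 over the 9 fits that left out 1 array each. Leaving out a transplanted SMA array cannot change this difference.

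The second comparison sets transplanted SMA against SMA, and bears on the effect of the graft. The Hspb1 differences were -1.02 (SE 0.22) and -1.02 (SE 0.25), so that transplanted SMA had 0.468 and 0.471 times the mean SMA signal. No small heat shock probe set passed limma's threshold, and 0% of all 11313 did, where the smallest adjusted p was 0.933 and 540 probe sets had an unadjusted p under 0.05. The 2 Hspb1 probe sets were those of 7 whose groups did not overlap, beside 9.11% of all. The genes were chosen with this comparison known as well, so nothing is read from that count. The SMA arrays are shared with the previous comparison, so a value that was high in SMA enters both. Microglial markers differed the same way, with all 8 tested lower in transplanted SMA than in SMA (median -0.93, 0 past the threshold). Their summed signal was 4899.5, 4542.1 and 8589.2 in transplanted SMA, 10326.9, 8206.7 and 9521.1 in SMA, and 5234.9, 8093.8 and 10810.5 in wild type. The transplanted and SMA arrays overlapped, and the wild-type arrays ran from near the lowest value to the highest. The part of microglia in the Hspb1 values was not tested.

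The third comparison, transplanted SMA minus wild type, shares arrays with both of the others. The Hspb1 differences were 0.85 (SE 0.22) and 1.52 (SE 0.25), with mean signals 1.99-fold and 4.90-fold those of wild type. The latter ratio again has a wild-type signal below the limit for testing as its base. In this contrast 0 of the 7 tested probe sets passed limma's threshold, against 0% of all tested, where the smallest adjusted p was 0.0805 and 741 probe sets had an unadjusted p under 0.05. Groups did not overlap for 4 of 7 small heat shock probe sets, both of Hspb1 and 2 of Hspb8, beside 14.1% of all. As the genes were chosen with this comparison known, nothing is read from these counts. Without transplanted SMA 2, the 1425964_x_at probe set of Hspb1 passed limma's threshold. Xist also split these groups, at 366.1 to 739.6 on transplanted and 23.5 to 32.9 on wild-type arrays. With Xist as a covariate the Hspb1 differences were 0.54 (SE 0.40) and 1.67 (SE 0.46). Within groups Xist varied most among the SMA arrays, so this covariate was fitted mostly on arrays outside the comparison. As Xist followed the group here, the part of sex cannot be told apart from that of group, and it was not tested.

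**Figure D2:**
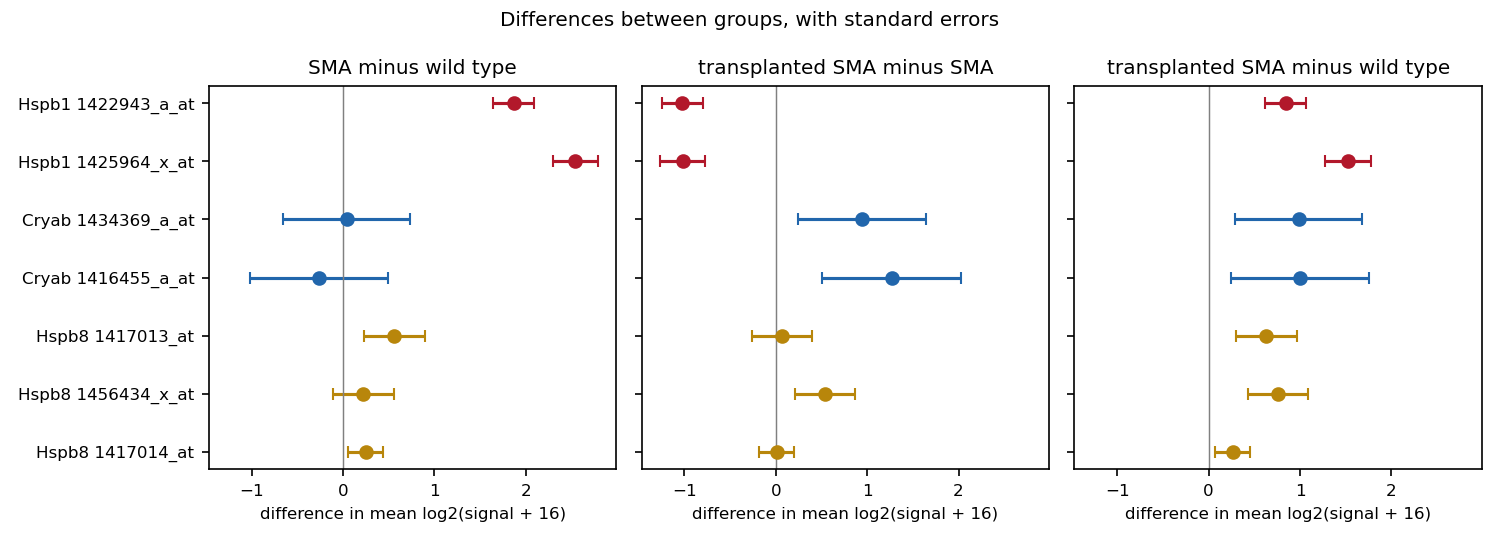
Difference in mean log2(signal + 16) between groups for the 7 tested probe sets, with the standard error of the limma fit as bars, in the 3 comparisons. Hspb1 lies at 1.87 and 2.54 in SMA minus wild type and at -1.02 for both probe sets in transplanted SMA minus SMA, while the bars of Cryab are the widest.

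Cryab varied widely between animals of the same group. The probe set 1434369_a_at read 1248.1, 662.2 and 1840.5 in transplanted SMA, 216.5, 522.5 and 1772.8 in SMA, and 345.7, 402.1 and 1343.5 in wild type. It was high on SMA 3 and wild type 3 and on transplanted SMA 1 and 3, and the groups overlapped in all comparisons. The probe set 1416455_a_at read 653.2, 240.2 and 542.7 in transplanted SMA, 79.3, 99.1 and 610.9 in SMA, and 95.2, 151.6 and 624.7 in wild type. The lowest array of this probe set was 8.24-fold below its highest.

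The group differences of Cryab, up to 1.27, were of the size of that spread, where the residual SD was 1.13 at 1434369_a_at and 1.23 at 1416455_a_at. SMA minus wild type gave 0.04 (SE 0.70) and -0.27 (SE 0.76) at the 2 bright probe sets. Transplanted SMA minus SMA gave 0.94 (SE 0.70) and 1.27 (SE 0.76). Transplanted SMA minus wild type gave 0.98 (SE 0.70) and 1.001 (SE 0.76). None of the 7 tested probe sets other than those of Hspb1 was past the threshold in any comparison. With standard errors this wide, a change of Cryab by 1 log2 unit would not have been detectable.

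The Cryab differences turned on a few arrays. Leaving out SMA 3 and wild type 3, the 2 arrays with the highest 18S RNA, the transplanted SMA minus SMA differences were 1.72 (SE 0.44) and 2.13 (SE 0.38), and the transplanted SMA minus wild type differences 1.59 (SE 0.44) and 1.74 (SE 0.38). None passed limma's threshold. That alternative was added after the data were seen. Leaving out SMA 1 and SMA 2 instead turned transplanted SMA minus SMA to -0.62 (SE 0.72) and -0.45 (SE 0.85) and moved SMA minus wild type to 1.60 (SE 0.72) and 1.46 (SE 0.85).

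Some markers of other cells were high on part of the arrays with high Cryab. The summed signal of 7 smooth muscle and pericyte genes was 1689.4, 762.8 and 669.8 in transplanted SMA, 353.5, 519.5 and 1506.6 in SMA, and 575.3, 405.5 and 1633.9 in wild type. It was high on SMA 3, wild type 3 and transplanted SMA 1, all arrays with high Cryab, but not on transplanted SMA 3, where Cryab was highest. The defining genes Myh11 and Tagln of smooth muscle read at most 16.1 and 74.8 on any array. The sum of 9 oligodendrocyte genes was 29711.1, 30111.2 and 41782.8 in transplanted SMA, 24196.6, 21512.3 and 39506.6 in SMA, and 28513.9, 30724.7 and 34112 in wild type. It was highest on transplanted SMA 3 and SMA 3 and lowest on SMA 1 and SMA 2, the same arrays at which the brighter Cryab probe set was highest and, for SMA 1, lowest. The astrocyte filament gene Gfap read 644.3, 847.5 and 1490 in transplanted SMA, 399.6, 406.2 and 2206.1 in SMA, and 469.1, 445.6 and 1007.3 in wild type. It too was highest on the arrays numbered 3. Another astrocyte gene, Slc1a3, went the other way at its brightest probe set. It was lowest on the arrays numbered 3, at 149.3 in transplanted SMA, 119.8 in SMA and 115.2 in wild type. The summed astrocyte list was 9205.8 to 16249.9, again highest on SMA 3. It did not follow Cryab throughout, at 9756.4 on transplanted SMA 1, where Cryab was high, and 10225.7 on SMA 1, where Cryab was lowest. The part of these cells, of 18S RNA and of the actin ratio in the Cryab values was not tested.

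**Figure D3:**
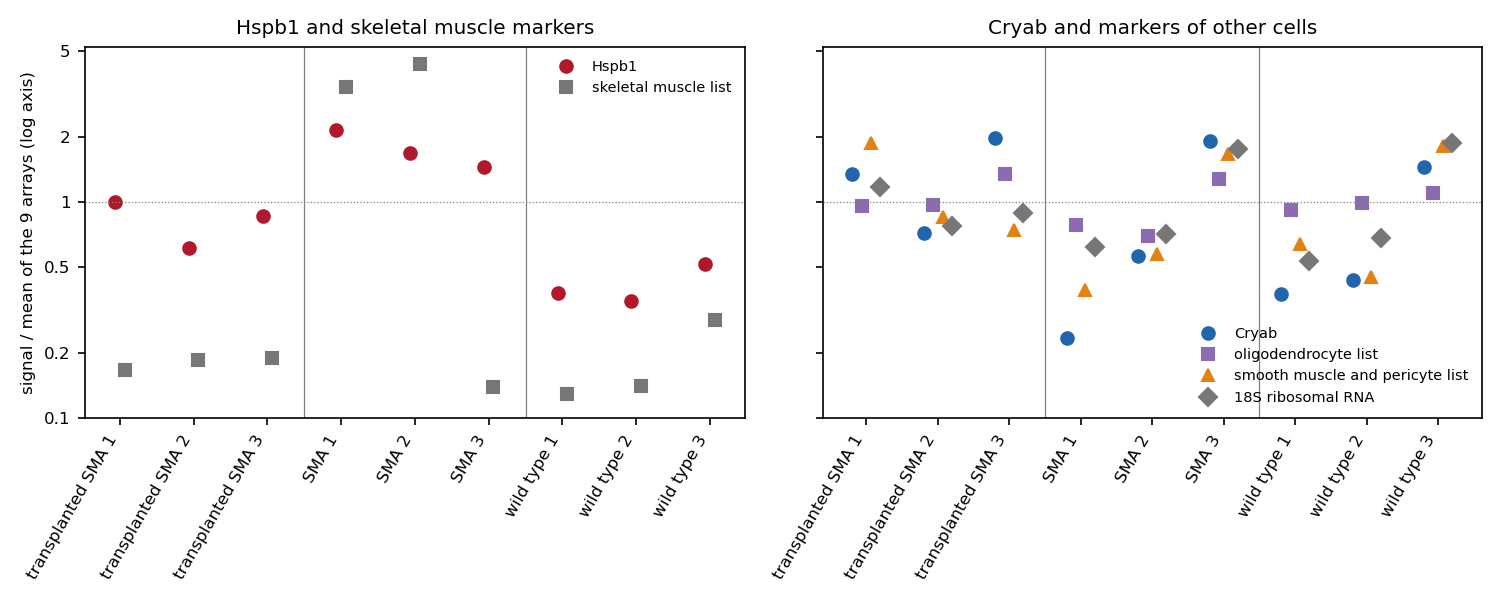
Signal on each array divided by the mean of the 9 arrays (log axis), for Hspb1 (1422943_a_at) with the summed skeletal muscle list at left, and for Cryab (1434369_a_at) with the summed oligodendrocyte and smooth muscle lists and 18S ribosomal RNA at right. Hspb1 on SMA 3 is 1.45 times the mean of all arrays while the muscle list there is 0.138 times its mean, and Cryab on SMA 3 (1.91) and wild type 3 (1.45) stands with 18S RNA at 1.76 and 1.87.

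Hspb8 had 3 probe sets, all tested. The brightest, 1417013_at, read 49.9, 55.6 and 98.7 in transplanted SMA, 45.2, 44.7 and 110.4 in SMA, and 21.6, 45.7 and 46.9 in wild type. Every transplanted SMA array lay above every wild-type array, while SMA overlapped with both. The probe set 1456434_x_at read 51.6, 64.2 and 61.8 in transplanted SMA, 14.6, 34.7 and 72.8 in SMA, and 19.9, 25.7 and 42.1 in wild type. Here too transplanted SMA was above wild type on every array. The last, 1417014_at, read 30, 44.8 and 43.3 in transplanted SMA, 37.7, 31.6 and 47.3 in SMA, and 36, 29.5 and 24.7 in wild type, with all groups overlapping.

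The Hspb8 differences in SMA minus wild type were 0.56 (SE 0.33) at 1417013_at, 0.22 (SE 0.33) at 1456434_x_at and 0.25 (SE 0.19) at 1417014_at. Transplanted SMA minus SMA gave 0.07 (SE 0.33), 0.54 (SE 0.33) and 0.01 (SE 0.19) in the same order. Transplanted SMA minus wild type gave 0.63 (SE 0.33), 0.76 (SE 0.33) and 0.26 (SE 0.19). All 9 values were positive, and none was past the threshold. They come from 3 probe sets of the same gene in comparisons that share arrays, so they are not separate observations. SMA 3 was the highest SMA array at all 3 probe sets, as it was for Cryab. Without SMA 3 the SMA minus wild type values were 0.21 at 1417013_at, -0.17 at 1456434_x_at and 0.14 at 1417014_at. Without SMA 1 and SMA 2 the value of 1417013_at was 1.26 (SE 0.39).

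Within the group of genes, profiles of Hspb8 and Cryab lay closer to each other than those of Hspb1 and Cryab did. The root mean square difference of the centred profiles was 0.75 between the brightest probe sets of Hspb8 and Cryab, 0.76 between Hspb8 and Hspb1, and 1.30 between Hspb1 and Cryab. Between probe sets of 1 gene it was 0.40 for Hspb1, 0.37 for the bright Cryab pair and 0.35 to 0.47 for Hspb8. These are descriptions over 9 arrays that share their scaling. Over the 7 tested probe sets the median difference was 0.25 in SMA minus wild type, 0.07 in transplanted SMA minus SMA and 0.85 in transplanted SMA minus wild type, against 0.01, 0.00 and -0.01 over all 11313. Positive values numbered 6, 5 and 7 of these 7, where 51%, 50.3% and 48.5% of all probe sets were positive. The genes were chosen with these differences known, several probe sets share a gene, and the comparisons share arrays. Nothing is therefore read from these medians and counts.

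The genes whose profiles over the 9 arrays were most like each member were named by the smallest root mean square difference, among 10417 named probe sets tested. For Hspb1 they were the phenol sulfotransferase Sult1a1 (0.37), ezrin (Ezr, 0.41), which ties membranes to actin, and Fkbp5 (0.42), a co-chaperone of Hsp90 that glucocorticoids induce. The Hspb1 profile itself had a spread of 0.80. Sult1a1 read 111.7, 103.9 and 100.1 in transplanted SMA, 155.3, 126.4 and 171.7 in SMA, and 20.8, 32.3 and 34.3 in wild type. Its groups did not overlap and stood in the same order as those of Hspb1. Ezr read 170.5, 124.1 and 142.8 in transplanted SMA, 248, 329.9 and 135 in SMA, and 92.6, 92.2 and 91.2 in wild type. All of its SMA and transplanted SMA arrays lay above all wild-type arrays, but SMA 3 lay within the transplanted range. Fkbp5 read 117.5, 87.9 and 144.7 in transplanted SMA, 248.4, 113.9 and 121.7 in SMA, and 69.7, 59.9 and 66.5 in wild type, with transplanted SMA and SMA overlapping.

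For Cryab the nearest profiles were those of Ndrg1 (0.33), a stress-responsive gene of myelinating glia, a probe set of the myelin basic protein gene Mbp (0.48) and one of the pericyte gene Rgs5 (0.48), where Cryab had a spread of 1.03. Ndrg1 read 1302.3, 314 and 834.3 in transplanted SMA, 115.2, 286.5 and 1158.1 in SMA, and 181.8, 281.4 and 768.1 in wild type. Like Cryab it was high on transplanted SMA 1 and on all arrays numbered 3. For Hspb8 they were the calpain gene Capn2 (0.21), Wfdc18 (0.24) and the Wnt co-receptor gene Lrp6 (0.25), beside a spread of 0.49. Capn2 was highest on SMA 3 at 785.6 and on transplanted SMA 3 at 608.3.

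**Figure D4:**
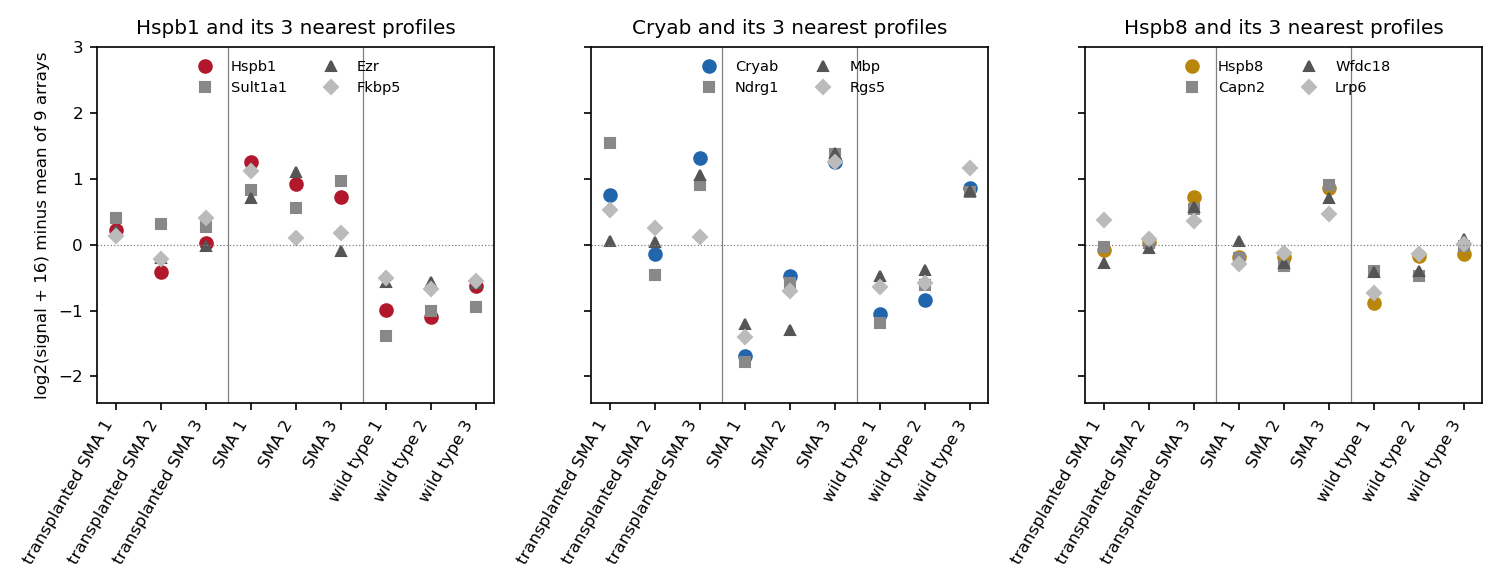
Log2(signal + 16) on each array minus the probe set's mean over the 9 arrays, for the brightest probe set of Hspb1, Cryab and Hspb8 and the 3 genes nearest to each. Hspb1 and its neighbours are low on all wild-type arrays, while Cryab and its neighbours are high on SMA 3 and wild type 3 and low on SMA 1.

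Other small heat shock genes were mostly too dim to test. Of 7, 5 had a probe set naming them alone and only Hspb2, a muscle small heat shock gene that lies within the annotated span of Cryab, was bright enough. It read 130.7, 30.1 and 61.7 in transplanted SMA, 41.8, 32.9 and 46.8 in SMA, and 26, 36.2 and 65.2 in wild type. The groups overlapped, and the differences were 0.00 (SE 0.37) in SMA minus wild type, 0.52 in transplanted SMA minus SMA and 0.52 in transplanted SMA minus wild type, at limma adjusted p = 1, 0.933 and 0.873. Hspb3, which is mutated in a human motor neuropathy, read 3.6 to 47.1, Hspb7 of heart muscle 16.9 to 31.3, the lens gene Cryaa 2.4 to 12.5 and the sperm tail gene Odf1 0.9 to 18.3. Hspb6 and Hspb9 had no probe set that named them alone.

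Across the pathway lists, 67 of 74 genes had a probe set and 47 were tested. None passed limma's threshold in any of the 3 comparisons. At an unadjusted p under 0.05 there were 4 in SMA minus wild type, 3 in transplanted SMA minus SMA and 6 in transplanted SMA minus wild type. Over all 11313 probe sets tested there were 683, 540 and 741 in the same comparisons.

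None of the 16 tested genes of the heat shock response passed the threshold in SMA minus wild type, where 4 were positive and 12 negative with a median of -0.13. Hsph1, a partner of Hsp70 in refolding, read 323.2, 272.1 and 272.2 in SMA and 410, 364.2 and 390.3 in wild type (-0.41, SE 0.17, limma adjusted p = 0.807). At this probe set, its brightest, all SMA arrays were below all wild-type arrays. Another Hsph1 probe set read 31.8, 28.6 and 63.2 in SMA and 46.4, 34.1 and 37 in wild type, with the groups overlapping. Chordc1, a co-chaperone of Hsp90, gave -0.36 (SE 0.17, adjusted p = 0.837). The inducible Hsp70 gene Hspa1b, a classic target of HSF1, gave 0.02 (SE 0.21) in SMA minus wild type, and Hspa1a was too dim to test at 2 to 30.5.

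Against SMA, the transplanted animals had 5 positive and 11 negative heat shock genes (median -0.08). Against wild type they had 3 positive and 13 negative (median -0.25). The collagen chaperone gene Serpinh1, positive in both, read 210.3, 125.8 and 188 in transplanted SMA, 61.6, 59.1 and 214.9 in SMA, and 59.3, 39.5 and 102.9 in wild type. At this probe set, its brightest, it was high on SMA 3 and in all transplanted animals. It gave 1.24 (SE 0.42, limma adjusted p = 0.698) in transplanted SMA minus wild type. In transplanted SMA minus SMA it gave 0.76 (SE 0.42, adjusted p = 0.933). Another Serpinh1 probe set read 132.5, 88.9 and 44.3 in transplanted SMA. It read 41.3, 34.1 and 67.7 in SMA, and 49.2, 57.9 and 77.7 in wild type. There transplanted SMA 3 lay below all wild-type arrays, and SMA 3 below wild type 3. The summed signal of 7 genes of meninges and fibroblasts was 7307.9 on transplanted SMA 1 and 911 to 4419.6 elsewhere, and its part in the Serpinh1 values was not tested. Hsp90aa1, the inducible cytosolic Hsp90, gave -0.36 (SE 0.23) in transplanted SMA minus SMA, and Chordc1 -0.52 (SE 0.17, adjusted p = 0.677) in transplanted SMA minus wild type.

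Partners that carry small heat shock clients to autophagy gave 4 positive and 8 negative values of 12 in SMA minus wild type (median -0.13). The neuronal co-chaperone Dnajb2 read 229.5, 215.9 and 261.1 in SMA and 336.7, 336.9 and 385.5 in wild type (-0.55, SE 0.16, limma adjusted p = 0.568). Its groups did not overlap. In transplanted SMA minus SMA it gave 0.33 (SE 0.16, adjusted p = 0.933), and the list had a median of 0.06. Bag1, which releases clients from Hsp70, gave -0.31 (SE 0.18) in SMA minus wild type, and Bag5, of the same family, 0.43 (SE 0.22) in transplanted SMA minus SMA. Bag3, the direct partner of Hspb8, was below the limit for testing, at 25.4, 27.1 and 45.1 in transplanted SMA, 37, 23.2 and 31.2 in SMA, and 21.1, 8.6 and 27.8 in wild type. In transplanted SMA minus wild type the list had a median of -0.06. The autophagosome gene Map1lc3b gave 0.44 (SE 0.23) there, and the ubiquitin shuttle gene Ubqln2 -0.46 (SE 0.27).

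Kinases that act on Hspb1 or lie upstream of those that do were all positive in SMA minus wild type, 7 of 7 tested, with a median of 0.12. The largest were protein kinase D1 (Prkd1, 0.45, SE 0.22, limma adjusted p = 0.842) and protein kinase C delta (Prkcd, 0.43, SE 0.18, adjusted p = 0.809). Prkcd read 114.1, 99.5 and 89.3 in SMA and 67, 64 and 82.2 in wild type, with no overlap. Mapkapk2, the kinase best known to phosphorylate Hspb1, read 71.8, 90.5 and 66.8 in transplanted SMA, 54.3, 51.6 and 59.7 in SMA, and 41.5, 66 and 49.1 in wild type. It was highest in all transplanted animals, and gave 0.37 (SE 0.18, adjusted p = 0.933) in transplanted SMA minus SMA and 0.44 (SE 0.18, adjusted p = 0.735) in transplanted SMA minus wild type. The list medians there were -0.02 and 0.18. Mapk14, the p38 alpha kinase that activates Mapkapk2, gave -0.19 (SE 0.20) in transplanted SMA minus SMA.

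Intermediate filaments, which small heat shock proteins keep from clumping, differed in sign by gene, 3 positive and 3 negative of 6 in SMA minus wild type (median -0.16). Vimentin, Vim, of glia and vessels gave 0.68 (SE 0.38, limma adjusted p = 0.871) and the neurofilament light chain Nefl -0.45 (SE 0.28). In transplanted SMA minus SMA 5 of 6 were positive (median 0.42), led by the heavy chain Nefh at 1.02 (SE 0.40, adjusted p = 0.933) and the medium chain Nefm at 0.85 (SE 0.42). Nefh read 91.2, 348.2 and 120.4 in transplanted SMA and 73, 54.1 and 87.1 in SMA, with transplanted SMA 2 far above the rest. That array had the lowest Hspb1 of the transplanted group. In transplanted SMA minus wild type 4 of 6 were positive (median 0.47), with Vim at 0.91 (SE 0.38, adjusted p = 0.739). Vim read 2060.5, 674.3 and 728.4 in transplanted SMA and 457, 461.2 and 703.5 in wild type. The groups overlapped, and transplanted SMA 1 stood far above the rest.

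Genes that neurons raise with Hspb1 after axon injury were tested for 5 of 12. All 5 were positive in SMA minus wild type (median 0.12), led by the transcription factor Stat3 at 0.58 (SE 0.21, limma adjusted p = 0.732). At its brightest probe set Stat3 read 184.2, 126.4 and 125.1 in SMA and 68.2, 108.2 and 99.4 in wild type, with no overlap. Another Stat3 probe set read 128.5, 100 and 102.6 in SMA and 115, 123.3 and 75.7 in wild type. There the groups overlapped. In transplanted SMA minus SMA 2 were positive and 3 negative (median -0.13). Socs3, the inhibitor that Stat3 induces, read 359.1, 92.2 and 152.9 in transplanted SMA, 35.5, 47.5 and 45.5 in SMA, and 20.3, 41.5 and 59.5 in wild type. Its transplanted arrays lay above all others (1.70, SE 0.40, adjusted p = 0.933 against SMA, and 1.81, SE 0.40, adjusted p = 0.326 against wild type), the reverse of the order of Hspb1 in transplanted SMA and SMA. Jun gave 0.56 (SE 0.17) against SMA and 0.64 (SE 0.17) against wild type, where the list median was 0.25. Atf3, the injury factor, was too dim on average to test, at 95.7, 66.8 and 62.8 in transplanted SMA, 14.9, 23.2 and 16.6 in SMA, and 2.1, 4 and 27.2 in wild type. It too was highest in the transplanted animals.

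**Figure D5:**
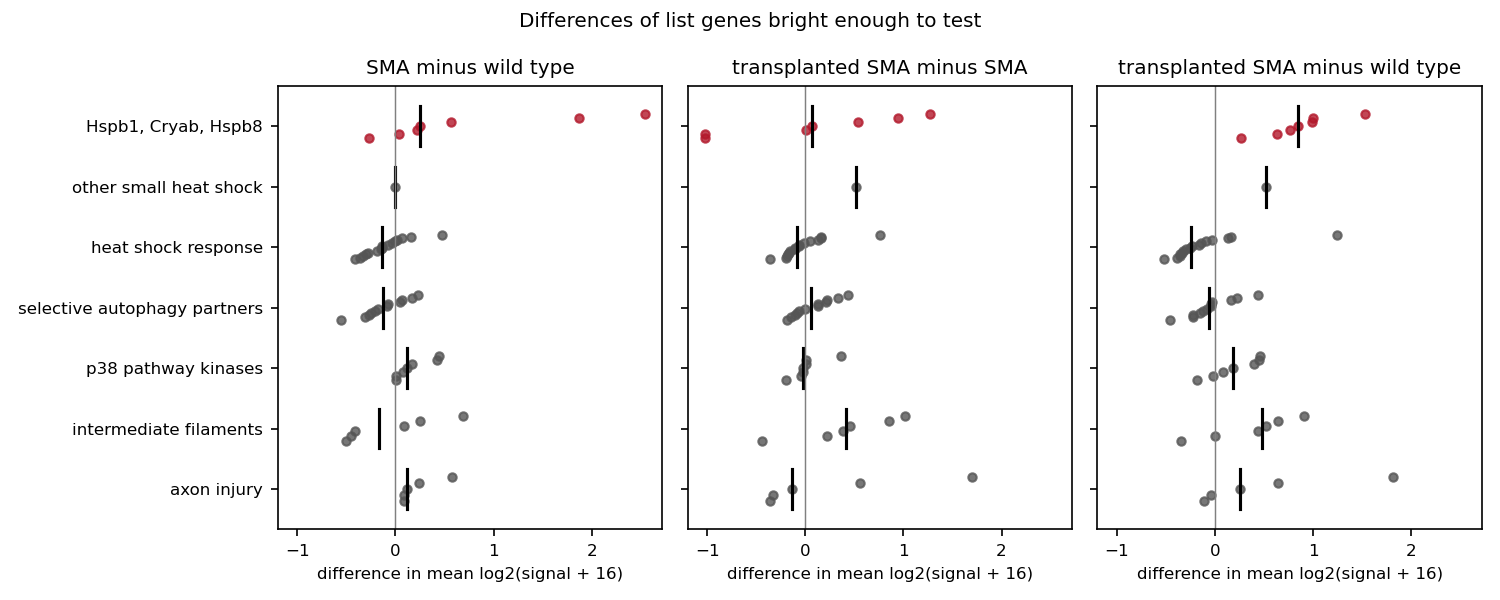
Difference in mean log2(signal + 16) of each tested gene of 6 lists (points, by its brightest probe set) and of the 7 tested probe sets of Hspb1, Cryab and Hspb8 (top row), in the 3 comparisons; vertical bars are medians. In SMA minus wild type the heat shock response genes lie on both sides of 0 around a median of -0.13, while the 2 Hspb1 probe sets lie at 1.87 and 2.54.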

How the data were processed

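The values are what the authors deposited, linear intensity signals made by MAS5 per the submitters' processing notes, which state no version or filter. Each array had a mean of 100 after trimming 2% of probe sets at each end, so that scaling was kept, and 64 control probe sets were left out. Of the rest, 20380 named 1 gene, 691 several and 1555 none in the annotation used, which can be old.

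Log2(signal + 16) was computed. The brighter 50% of probe sets by mean over all 9 arrays was fitted with limma 3.58.1 in R 4.3.3 (lmFit, eBayes with trend, a mean per group, 6 residual degrees of freedom), with two-sided p-values adjusted by Benjamini-Hochberg over 11313 probe sets. The number of arrays limits the precision. The fit was tested on simulated data. A list gene entered by its brightest probe set naming it alone.

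The members and gene lists were chosen with earlier results of these data known. Named were all members, all other small heat shock genes, the 2 genes of smallest p per list and comparison, and the 3 nearest profiles per member. Hspa1a, Hspa1b, Bag3, Atf3, Gfap, Isl2 and the other marker genes besides Acta1, Tnnc2, Eif2s3y and Xist were named after their values were seen. Alternatives were other normalisations, pseudocounts, filters, variance models, covariates, a replicate block and arrays left out.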

Additional observations from a re-analysis of the deposited data

How the results depend on the processing

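The differences of the brightest Hspb1 probe set kept their sign in all 18 alternatives of each comparison, at 1.43 to 2.13 in SMA minus wild type, -1.16 to -0.78 in transplanted SMA minus SMA and 0.54 to 1.02 in transplanted SMA minus wild type. The replicate block, and leaving out arrays of the group not compared, cannot change a difference, so not all of these alternatives are checks of it. The value was 1.43 with a pseudocount of 64 in SMA minus wild type and 0.54 with Xist as a covariate in transplanted SMA minus wild type. For Cryab, Xist as a covariate gave 1.82 in SMA minus wild type and 3.31 in transplanted SMA minus wild type, and leaving out SMA samples 1 and 2 gave 1.60 in SMA minus wild type and -0.62 in transplanted SMA minus SMA. For Hspb8 the muscle covariate gave 1.12 in SMA minus wild type and -0.49 in transplanted SMA minus SMA, Xist gave 1.51 in SMA minus wild type and 1.87 in transplanted SMA minus wild type, and leaving out SMA samples 1 and 2 gave 1.26 in SMA minus wild type and -0.63 in transplanted SMA minus SMA. These covariates and the fits without SMA samples 1 and 2 rest largely on SMA 3, so they are not separate results. The cause was not tested.

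Counts of all probe sets past the threshold were 5 in SMA minus wild type and 0 in each comparison of transplanted SMA, against SMA and against wild type. The first was 0 with muscle or Xist as a covariate and without SMA samples 1 and 2, 2 among the brightest 25% of probe sets, and 11 without wild type 3 and SMA 3, and it ranged over 2 to 13 with single arrays left out. The second was 3 with Xist, 7 without wild type 3 and SMA 3, and 0 to 4 with single arrays left out. The third was 2 with a pseudocount of 1, 6 with muscle, 8 without SMA samples 1 and 2, 8 with array weights, 8 with only the 6 arrays compared, 3 without wild type 3 and SMA 3, and 0 to 7 with single arrays left out. The alternative without wild type 3 and SMA 3 was chosen after seeing the data. With the replicate block the counts were 5, 0 and 0. Arrays of the same number correlated at -0.0832 to 0.453 in their deviations from the group means, over 0.1 in 6 of 9 pairs. Of the 9 arrays, 6 correlated best with an array of their own number in another group. The number was not a block in the main fit because the labels state no pairing. Whether arrays of the same number share a batch was not tested. The 3 arrays per group limit what can be detected, and probe sets near the dim limit, as those of Hspb8, carry little signal over background.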
